A study of Mus with 4 samples.

Results

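Large-fibre sensory neurons that express Pvalb were taken from droplet single-cell RNA counts of left L4 and L5 dorsal root ganglia (DRG) of the mouse. The cells were chosen by a rule on UMI counts (a UMI is a molecule tag, so 1 UMI is 1 captured transcript). A barcode counted as a neuron when it held at least 8000 UMIs, under 20% mitochondrial UMIs, and at least 20 UMIs of Snap25, Uchl1 and Tubb3 together, with more of these than of the glial genes Apoe and Fabp7. Of such neurons, those with at least 3 Pvalb and at least 5 Nefh UMIs per 10000 were kept and are called Pvalb neurons. They were 167 of 3740 neurons and of 37451 barcodes in all.

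The CCI group consisted of wild-type male C57BL/6J mice, 8 weeks old by the study's methods, 3 d after chronic constriction injury, made by tying the left sciatic nerve loosely with ligatures. The CON group was naive wild-type mice of the same strain, with no operation. Each group had 2 libraries, and the number of mice in each was not given in the sources used here. Because nothing says that the libraries came from separate animals, p-values measure only the spread between these libraries, which may be technical. The ligatures injure only part of the nerve, and the ganglia therefore also hold neurons whose axons were spared.

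Pvalb encodes parvalbumin, a cytosolic calcium buffer, and Nefh the heavy neurofilament chain that fills thick myelinated axons. In the DRG, neurons with both are mostly proprioceptors, which innervate muscle spindles and tendon organs, together with some fast touch afferents. They release glutamate, depend on the neurotrophin receptor encoded by Ntrk3 and on the transcription factors Runx3 and Etv1, and are known for low activation thresholds and fast conduction. A cut or ligated sensory axon starts a programme of regeneration-associated genes (RAGs) in the cell body, which includes transcription factors such as Atf3 and growth-cone proteins such as Gap43.

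The CCI libraries gave 75 and 60 Pvalb neurons and the CON libraries 12 and 20. Pvalb neurons were thus 4.54% and 6.66% of the neurons in the CCI libraries, and 1.28% and 8.10% in the CON libraries, so that the range of the CON shares enclosed that of the CCI shares. Median UMIs per Pvalb neuron were 13307 and 23308 in the CCI libraries, against 46777 and 27722.5 in the CON libraries. Median mitochondrial shares were 1.64% and 1.36% in the CCI libraries, against 0.204% and 0.544% in the CON libraries. Both medians put the CCI libraries on one side of the CON libraries, with lower depth and more mitochondrial RNA in CCI. Single members overlapped widely in both quantities. Their totals ran from 8026 to 124931 and from 8648 to 130322 UMIs in CCI, against 19067 to 72843 and 8325 to 211382 in CON. Summed over members, the libraries held 1969866 and 2053070 UMIs in CCI and 558053 and 929487 UMIs in CON. The precision of the CON values is set by 32 cells.

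The depth of whole libraries ranged over 113530798 to 135009606 UMIs in CCI and 52074235 to 75599766 UMIs in CON. Between any pair of libraries, 12 to 31 barcode sequences were shared, none of them as a Pvalb neuron in both. No doublet caller was run on these barcodes. Members with at least 10 UMIs per 10000 of genes that mark glia or other types of neuron were left out in an alternative instead. It kept 28 of 75 and 47 of 60 members in CCI and 8 of 12 and 19 of 20 in CON. Most members of CCI replicate 1 thus carried such RNA, and the share left out was unequal between libraries.

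Pvalb and Nefh chose the members, so their values are a description with no test. Pvalb stood at 1247 and 1425 CPM (UMIs scaled to 1000000 per sum) in the CCI libraries, against 2149 and 1761 in the CON libraries (all levels below are in this unit, CPM, taken over the summed cells of a library). Nefh stood at 2301 and 2708 in the CCI libraries, against 3647 and 3784 in the CON libraries. Pvalb lies on chromosome 15 from 78191112 to 78206400 and Nefh on chromosome 11 from 4938754 to 4948064 in GRCm38, the mm10 build. Just inside the Pvalb threshold, 25 members had 3 to under 4 Pvalb UMIs per 10000 (17 and 3 in CCI, 0 and 5 in CON). Just outside it, 46 neurons with enough Nefh had 2 to under 3 (35 and 4 in CCI, 6 and 1 in CON). For Nefh, 5 members lay between 5 and 6 per 10000 and 8 neurons with enough Pvalb lay between 4 and 5.

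The members fell along a range of Pvalb rather than into a tight class, and the low end of that range was filled unequally. Of the 167, 74 had at least 10 Pvalb UMIs per 10000 (20 and 35 in CCI, 10 and 9 in CON) and are called high-Pvalb neurons below. The other 93 had 3 to under 10 (55 and 25 in CCI, 2 and 11 in CON). Median UMIs of the high-Pvalb neurons were 32357.5 and 30396 in CCI and 46777 and 28812 in CON. In the lower range they were 10954 and 16732 in CCI and 45065.5 and 26633 in CON. Shallow cells with little Pvalb thus made up much of the CCI set, most of all in CCI replicate 1, and the main results are given for high-Pvalb neurons as well.

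Single deep cells carried much of some sums. The deepest Pvalb neuron held 6.34% and 6.35% of the summed UMIs in the CCI libraries, against 13.1% and 22.7% in the CON libraries. Among high-Pvalb neurons it held 15.9% and 8.95% in CCI, against 15.6% and 38.4% in CON. The fits were therefore repeated without the deepest neuron of each library, an alternative chosen after seeing the data, and the cases where 1 cell held most UMIs of a gene are given beside the values.

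**Figure D1:**
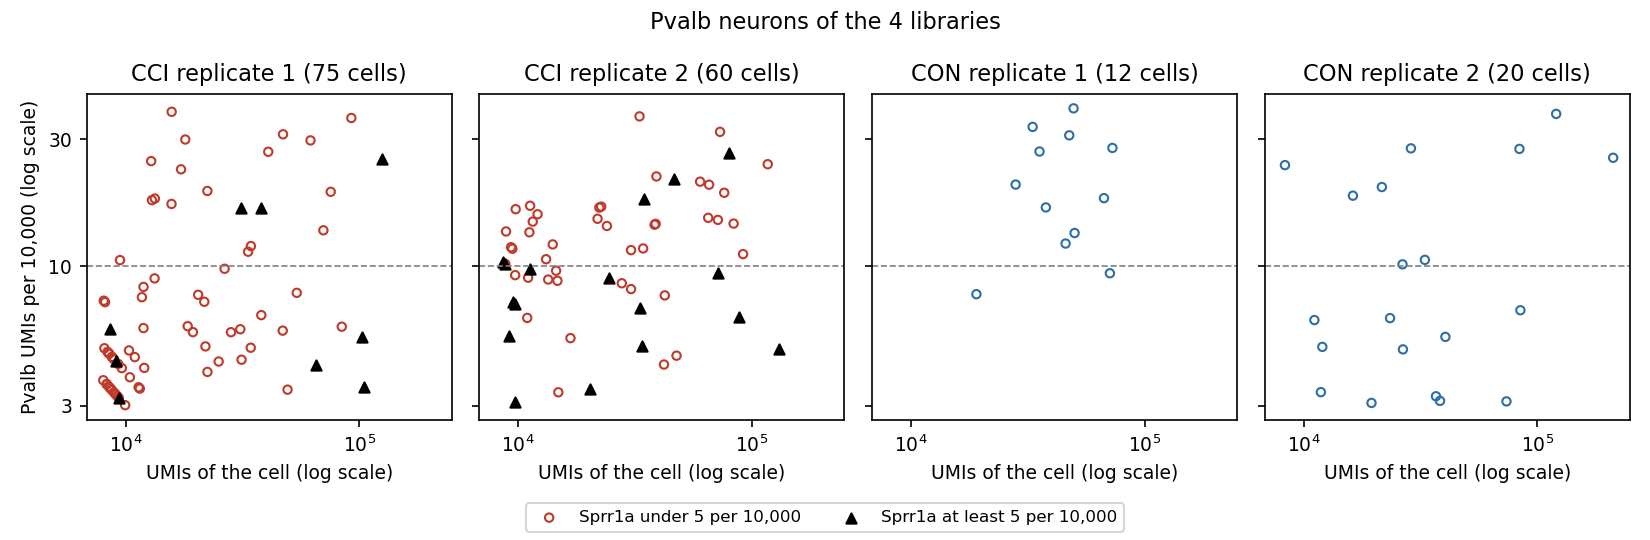
Each point is 1 Pvalb neuron, with its Pvalb level (UMIs per 10000, log axis) against its total UMIs (log axis) in the CCI libraries and then the CON libraries, a line at 10 Pvalb UMIs per 10000, and triangles for neurons with at least 5 Sprr1a UMIs per 10000. The 55 and 25 CCI neurons under that line had median totals of 10954 and 16732 UMIs, and the 20 and 35 above it 32357.5 and 30396.

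Free RNA in droplets can put a few UMIs of any abundant gene into any barcode, so satellite glia, which wrap the neurons, served as the background. They were 1928 and 2684 barcodes in CCI and 2244 and 1051 in CON, with median totals of 6263.5 and 7568 UMIs in CCI and 4506.5 and 11962 in CON. Among satellite glia with at least 8000 UMIs, the Pvalb and Nefh thresholds were met by 10 of 561 (1.78%) and 2 of 1180 (0.169%) in CCI, and by 0 of 163 and 1 of 814 (0.123%) in CON. None reached 10 Pvalb UMIs per 10000 in any library. Pvalb itself was at 64.3 and 36.4 in CCI glia and at 78.7 and 6.37 in CON glia, far under its level in the members.

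The label was checked against genes that the rule did not use. Slc17a7, which encodes the vesicular glutamate transporter VGLUT1 of large-fibre afferents, stood in Pvalb neurons at 309 and 346 in CCI and 453 and 417 in CON. In the other neurons with at least 5 Nefh UMIs per 10000 (other Nefh neurons, 557 in all) it stood at 61.9 and 106 in CCI and 78.7 and 91.0 in CON. These were 260 and 140 cells in CCI and 139 and 18 in CON, so their values in CON replicate 2 rest on 18 cells. No library of the other Nefh neurons reached the lowest library of the Pvalb neurons, and in satellite glia the gene was at 2.80 to 25. The log2 fold change was 2.25 (SE 0.15), with an adjusted p of 1.43e-05 (edgeR's quasi-likelihood test with the library as a block, Benjamini-Hochberg over all genes tested).

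Cell by cell, after each cell was thinned to 8000 UMIs, Slc17a7 had at least 1 UMI in 53 of 75 and 45 of 60 Pvalb neurons in CCI and in 12 of 12 and 15 of 20 in CON. It did so in 19 of 20 and 30 of 35 high-Pvalb neurons in CCI and 10 of 10 and 7 of 9 in CON. In other Nefh neurons the share was 31.9% and 43.6% in CCI and 29.5% and 33.3% in CON, and in satellite glia 9.09% and 5.42% in CCI and 8.59% and 2.09% in CON. The shares of all Pvalb neurons and of high-Pvalb neurons lay above both. So did those of the lower Pvalb range, at 34 of 55 and 15 of 25 in CCI and 2 of 2 and 8 of 11 in CON. In that range, however, the exact 95% interval held the value of other Nefh neurons in CCI replicate 2 (38.7% to 78.9%) and in CON replicate 1.

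Cbln2, a secreted synapse organizer, was also higher in Pvalb neurons than in other Nefh neurons (log2 fold change 2.15, SE 0.22, adjusted p = 0.000117, edgeR). Its levels in Pvalb neurons were 314 and 176 in CCI and 364 and 137 in CON, against 48.0 to 64.6 in other Nefh neurons. In CON replicate 2, 1 cell held 95 of its 127 UMIs, and without that cell the level was 44.6, under the other Nefh neurons, while the test still passed without the deepest neurons (adjusted p = 0.00561, edgeR). Among high-Pvalb neurons the log2 fold changes were 2.55 for Slc17a7 and 2.35 for Cbln2, both past the test. Lgi2, a secreted protein of the LGI family, did not pass the test. It stood at 56.3 and 64.8 in CCI and 80.6 and 89.3 in CON, against 49.7 and 44.7 in CCI and 53.6 and 90.5 in CON in other Nefh neurons (log2 fold change 0.38, SE 0.14, adjusted p = 0.0842, edgeR), nor did it in high-Pvalb neurons (0.39, adjusted p = 0.0843, edgeR).

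Across all genes, 1190 of 11062 were higher in Pvalb neurons (10.8%) and 1354 were lower (12.2%) at an adjusted p under 0.05 in edgeR, 2544 in all and 1658 without CCI replicate 1. Groups of genes with a known role gave other shares than this background. Of 11 tested genes on a list of proprioceptor genes, 9 were higher and 1 was lower, with a median log2 fold change of 3.12 against -0.02 over all genes. Of 14 nociceptor and C-fibre genes, none was higher and 10 were lower, with a median of -2.20. In high-Pvalb neurons the same 9 proprioceptor genes were higher and the same 1 was lower. The sums thus stood on the side of the label on genes outside the rule, but many members did not. In CCI replicate 1, 3 members near the Pvalb threshold (Pvalb of 3.01 to 4.56 per 10000) held 170 to 235 UMIs per 10000 of the nociceptor gene Calca, at most 0.913 of Etv1 and none of Whrn. They had the most Calca, and many other members of that library held less of it, also with little or no Etv1 and Whrn. In CON replicate 2, many members had no UMI of Etv1 or Whrn, among them a cell of 73889 UMIs without Sprr1a. Members with much Sprr1a, described at the end, also had little Etv1 and Whrn.

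Etv1, an ETS transcription factor that proprioceptors need for their central projections, had the largest log2 fold change among the genes named by size. It stood at 299 and 268 in CCI and 615 and 609 in CON in Pvalb neurons, against 25.4 and 10.3 in CCI and 42.7 and 25.9 in CON in other Nefh neurons (log2 fold change 4.18, SE 0.20, adjusted p = 1.91e-06, edgeR). Etv1 was also present in satellite glia at 61.1 and 69.9 in CCI and 97.6 and 101 in CON, above the other Nefh neurons. Every Pvalb library lay above every glial one. The gene lies on chromosome 12 from 38780082 to 38870483.

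Runx3, the runt-domain factor that directs proprioceptor fate, was at 53.8 and 52.1 in CCI and 98.6 and 89.3 in CON in Pvalb neurons. In other Nefh neurons it was at 3.29 and 7.28 in CCI and 16.1 and 0 in CON (log2 fold change 3.52, SE 0.40, adjusted p = 0.00019, edgeR), and in satellite glia at 0.466 to 3.54. The lowest Pvalb library thus lay above the highest library of the other classes. Whrn, which encodes the scaffold protein whirlin, stood at 46.2 and 26.8 in CCI and 52.0 and 59.2 in CON in Pvalb neurons, against 0.552 to 6.17 in other Nefh neurons (log2 fold change 3.27).

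The remaining higher members of the proprioceptor list were the protocadherin gene Pcdh8 (log2 fold change 4.94), the secreted phosphoprotein gene Spp1 (3.43), the orphan nuclear receptor gene Esrrg (3.12), Heg1 (1.47), Cntnap2 (1.23) and Ntrk3 (0.65). Cntnap2 encodes Caspr2, which holds Kv1 channels beside the node, and Ntrk3 the receptor of neurotrophin-3. Ntrk3 was the member least apart, at 262 to 475 in Pvalb neurons and 189 to 324 in other Nefh neurons. Pou4f3, a POU-domain factor, was the lower member (log2 fold change -1.49, adjusted p = 0.0128, edgeR).

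Outside that list, the largest differences by the fixed rule were in the neuronal calcium-binding gene Caln1 (log2 fold change 3.85), the neurofilament gene Ina (3.56) and the orphan receptor gene Gprc5b (3.50). Ina encodes alpha-internexin, a partner of the neurofilament triplet. In CON replicate 2, 1 cell held 98 of the 117 Ina UMIs. Of the other chains, Nefl and Nefm were higher as well (0.91 and 1.10). All 3 tested neurofilament genes other than peripherin thus stood above other Nefh neurons. Gprc5b was at 46.1 to 74.3 in satellite glia, a level that overlapped the 45.8 to 167 of Pvalb neurons. Shox2, a homeobox gene of touch neurons, was higher at 2.35 and was the sole higher member among 9 low-threshold mechanoreceptor genes, of which 4 were lower.

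Among channels, Kcns1, a silent subunit of Kv2 channels, was higher at 55.8 and 36.5 in CCI and 108 and 79.6 in CON, against 14.4 to 31.4 in other Nefh neurons (log2 fold change 1.71). Kcna2, the Kv1.2 channel of the juxtaparanode, did not pass the test among all members (0.17, adjusted p = 0.429, edgeR). In high-Pvalb neurons it did pass, and was higher than in other Nefh neurons. Of 31 potassium and HCN channel genes, 7 were higher and 12 lower, and in high-Pvalb neurons 10 were higher and 14 lower. Of 13 calcium channel genes, none was higher and 10 were lower, with a median log2 fold change of -1.13.

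The lower genes named by size were Ptgir, the prostacyclin receptor (log2 fold change -4.89), Htr3a, the ionotropic serotonin receptor (-4.66), the receptor kinase gene Kit (-4.61), the sodium channel subunit gene Scn2b (-4.46) and the sphingomyelinase gene Smpd3 (-4.43). Htr3a stood at 7.61 and 6.82 in CCI and 8.96 and 4.30 in CON in Pvalb neurons, against 152 and 243 in CCI and 133 and 174 in CON in other Nefh neurons. The nociceptor genes showed the same order. Calca, the gene of the peptide CGRP, was at 1092 and 428 in CCI and 262 and 52.7 in CON in Pvalb neurons, against 4732 to 7962 in other Nefh neurons, while satellite glia held 60.0 to 1037.

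**Figure D2:**
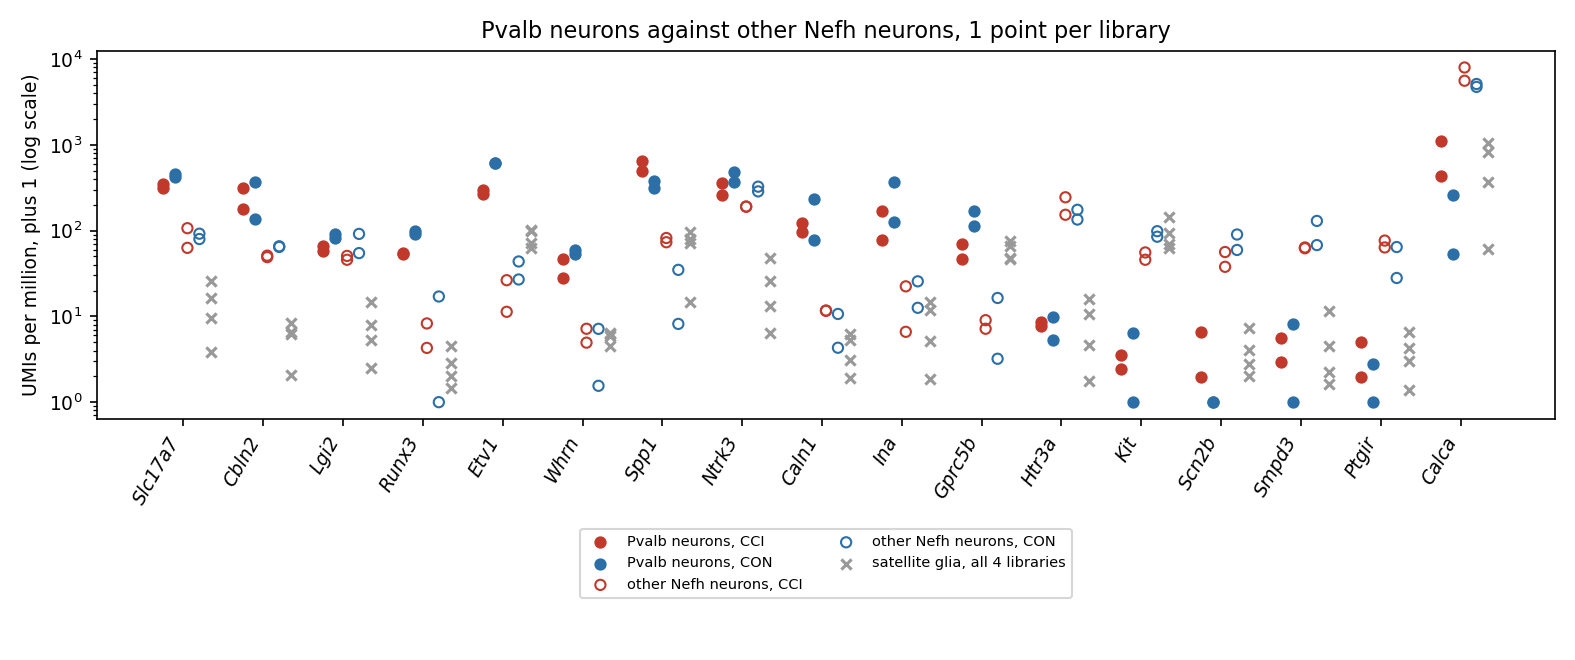
Levels of label, proprioceptor and other named genes in Pvalb neurons (filled), other Nefh neurons (open) and satellite glia (crosses) are shown as CPM plus 1 on a log axis, with 1 point for each library (CCI red, CON blue). Etv1, Runx3 and Slc17a7 lie higher in every Pvalb library than in any library of other Nefh neurons, whereas Htr3a, Kit and Calca lie lower.

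The next comparison asked what 3 d of nerve injury did to these neurons. After CCI, Pvalb neurons carried more RNA of the injury transcription factors Atf3 and Sox11, of growth-cone genes led by Gap43, and of peptides such as Gal and Nts, all of which were low in CON. Of 9304 genes tested, 292 were higher (3.14%) and 41 were lower (0.441%) in CCI at an adjusted p under 0.05 in edgeR, and the median log2 fold change of all genes was 0.00. In high-Pvalb neurons 91 of 7118 genes were higher (1.28%) and 8 were lower (0.112%). Of those 99 genes, 93 were also called among all members with the same sign. The number of calls depended on depth and on the CON libraries: it was 34 with every cell thinned to 8000 UMIs, 178 with doublet-like cells left out, 183 without the deepest neuron of each library, 678 without CON replicate 1 and 522 without CON replicate 2, against 333 in all. The 99 calls in high-Pvalb neurons became 40 without the deepest neurons. Of the genes named below for this comparison, Rasgrp2, Kcna2, Jun, Bdnf, Calca, Tmem233, Bola3 and Isoc1 missed the threshold among all members without the deepest neurons.

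Markers of other cells moved with the groups, and their part in the results was not tested. The summed level of 5 Schwann cell markers in Pvalb neurons was 1869 and 372 in CCI, against 211 and 184 in CON, and in high-Pvalb neurons 265 and 365 in CCI, against 150 and 54.5 in CON. Prx, one of the 5, had no UMI in high-Pvalb neurons of any library. The 4 fibroblast markers summed to 77.2 and 433 in CCI, against 12.5 and 26.9 in CON, of which 4 were detected in each CCI library, and 1 and 2 in the CON libraries. Immune markers (5 genes) summed to 122.9 and 28.7 in CCI, against 8.96 and 10.8 in CON, and endothelial markers (4 genes) to 66.5 and 18.0 in CCI, against 3.58 and 3.23 in CON. Neutrophil markers (4 genes) reached 254 in CCI replicate 2, against 6.60 in CCI replicate 1 and 8.96 and 46.3 in CON. In high-Pvalb neurons the immune sums were 7.62 and 16.1 in CCI, against 8.55 and 14.5 in CON, and the groups overlapped, as did the fibroblast sums, at 26.7 and 75.05 in CCI, against 12.8 and 38.1 in CON. The endothelial sums stayed apart there, at 7.62 and 24.5 in CCI, against 4.27 and 5.45 in CON. The 5 satellite glia markers summed to 470 and 441 in CCI, against 495 and 464 in CON. One of them, Glul, the gene of glutamine synthetase, was higher, at 121 and 174 in CCI, against 50.2 and 55.9 in CON (log2 fold change 1.55, adjusted p = 0.00944, edgeR), although satellite glia themselves held 290 and 334 in CCI, against 776 and 656 in CON. In high-Pvalb neurons Glul did not pass (1.35, adjusted p = 0.0586, edgeR).

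Of the 292 higher genes, 165 (56.5%) stood above their level in satellite glia of the same library in both CCI libraries, and 65 (22.3%) at more than 3 times that level. In high-Pvalb neurons this held for 62 of 91 (68.1%) and 25 of 91 (27.5%). For the others, free RNA and expression in the neuron cannot be told apart.

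The 9 genes that the study names as RAGs (Gadd45a, Gal, Gap43, Atf3, Serpinb1a, Sox11, Flrt3, Sprr1a and Gpr151) were all higher, with a median log2 fold change of 4.17, or 4.02 with genes absent from CON set at their bound. The study chose that list on these samples, so its direction is no independent evidence. All 8 of them that could be tested in high-Pvalb neurons were higher there too. Since some of these genes had no UMI in either CON library, a fitted fold depends on a prior count, and folds against CON are given as bounds from 3 UMIs over the CON group.

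Sprr1a encodes a small proline-rich protein that promotes neurite outgrowth and lies on chromosome 3 from 92483954 to 92485881. It stood at 683 and 939 in CCI, against 0 and 0 in CON, at least 403-fold higher (adjusted p = 4.43e-07, edgeR). In high-Pvalb neurons it was at 1042 and 383 in CCI, against 0 and 0 in CON. The deepest of these cells held 522 of the 821 Sprr1a UMIs in CCI replicate 1, and without it the level was 451. Satellite glia of the CCI libraries held 47.7 and 45.8, under every value of the neurons.

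Gap43, a growth-cone phosphoprotein of chromosome 16 (42248552 to 42340651), stood at 899 and 810 in CCI, against 41.2 and 17.2 in CON (log2 fold change 5.02, SE 0.40, adjusted p = 4.52e-06, edgeR). High-Pvalb neurons had 510 and 342 in CCI, against 34.2 and 7.27 in CON (log2 fold change 4.44, adjusted p = 0.000506, edgeR). Of these, CCI replicate 1 fell to 255 without 1 cell that held 233 of its 402 Gap43 UMIs. Its level in satellite glia was 195 and 92.3 in CCI, against 114 and 5.20 in CON, so that the neurons lay under their glia in CON replicate 1 and above them in the other 3 libraries.

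Atf3, the stress-induced factor most used as a mark of axotomy, was at 560 and 315 in CCI, against 52.0 and 9.68 in CON (log2 fold change 4.02, SE 0.51, adjusted p = 0.000208, edgeR). Satellite glia held more of it than neurons in CCI replicate 2 (694) but less in CCI replicate 1 (153). Sox11, a SOX factor of axon growth, was at 188 and 151 in CCI, against 28.7 and 10.8 in CON, and glia held 27.1 and 10.6 in CCI. Gadd45a, which responds to DNA damage and stress, was at 397 and 354 in CCI, against 23.3 and 36.6 in CON (log2 fold change 3.67). In high-Pvalb neurons the log2 fold changes of these 3 genes were 3.39, 2.87 and 3.30, all past the test.

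Serpinb1a, an inhibitor of serine proteases, was at 293 and 728 in CCI, against 5.38 and 74.2 in CON (log2 fold change 3.64, SE 0.63, adjusted p = 0.00279, edgeR), and glia held 209 and 96.2 in CCI. Among high-Pvalb neurons the levels were 118 and 427 in CCI, against 6.41 and 10.9 in CON, so both sets kept the groups apart while the CCI libraries differed from each other. Gpr151, an orphan receptor of injured sensory neurons, was low, at 15.2 and 20.5 in CCI, against 0 and 0 in CON (at least 8.87-fold higher). Glia held 3.62 and 2.21 of it in CCI, and in high-Pvalb neurons, at 11.4 and 5.36 in CCI, it was too low to be tested.

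Of 21 injury and activity transcription factors tested, 10 were higher and none was lower, with a median log2 fold change of 1.72. In high-Pvalb neurons 2 of 14 were higher, Atf3 and Sox11. Jun, the AP-1 partner of Atf3, was at 537 and 308 in CCI, against 197 and 154 in CON (log2 fold change 1.33, adjusted p = 0.0264, edgeR). In high-Pvalb neurons its log2 fold change was 0.66 with an adjusted p of 0.258 (edgeR), and satellite glia held 800 to 3610.

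Of 21 growth-cone and cytoskeleton genes tested, 11 were higher and none was lower, with a median of 1.97, and in high-Pvalb neurons 8 of 19 were higher. The other 10 did not pass, among them Dpysl2, which encodes CRMP2, at 549 and 677 in CCI and 677 and 706 in CON. Tubb6, a beta-tubulin of injured neurons, stood at 112 and 164 in CCI, against 3.58 and 2.15 in CON (log2 fold change 5.70). Tubb2b, a tubulin of growing axons, was at 655 and 351 in CCI, against 44.8 and 3.23 in CON (4.64). Stmn4, a stathmin that regulates microtubules, was at 165 and 143 in CCI, against 8.96 and 11.8 in CON (3.90). Flrt3, a membrane protein with roles in axon guidance, was at 175 and 112 in CCI, against 10.8 and 6.46 in CON (4.17). All 4 also passed in high-Pvalb neurons, with log2 fold changes of 5.89, 3.56, 3.29 and 3.82, but Tubb2b did not without the deepest neurons (adjusted p = 0.0719, edgeR).

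Neuropeptide and secreted-factor genes gave 12 higher of 13 tested and none lower, with a median of 4.52, or 4.50 with genes absent from CON set at their bound. In high-Pvalb neurons 5 of 8 were higher. Gal, the gene of the peptide galanin, was at 296 and 827 in CCI, against 12.5 and 2.15 in CON (log2 fold change 6.56, SE 0.65, adjusted p = 2.15e-05, edgeR). Of the 1698 Gal UMIs of CCI replicate 2, 986 lay in 1 cell of 130322 UMIs and a Pvalb of 4.91 per 10000, and without it the level was 370. The log2 fold change without the deepest neuron of each library was 5.65 (adjusted p = 4.61e-05, edgeR). Glia held 293 and 134 in CCI, so neurons of CCI replicate 1 stood no more than a few CPM above their glia. High-Pvalb neurons had 104 and 272 in CCI, against 15.0 and 0 in CON, and here too 1 cell held 240 of the 355 Gal UMIs of CCI replicate 2, without which the level was 91.3. Nts, the gene of neurotensin, stood at 145 and 437 in CCI, against 1.79 and 1.08 in CON, 219 times higher by raw sums, with a counting interval of 60.4 to 1808. High-Pvalb neurons held 90.1 and 379 in CCI, against 2.14 and 1.82 in CON.

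Npy, the gene of neuropeptide Y, which large neurons are known to switch on after axotomy, differed most between the CCI libraries. It was at 19.3 and 531 in CCI, against 0 and 1.08 in CON. The upper value came from neurons in the lower Pvalb range, which held 1397 CPM in CCI replicate 2, since high-Pvalb neurons had 6.35 and 35.2 in CCI and glia had 36.2 and 31.5. Vgf, the precursor of several secreted peptides, was even at 234 and 196 in CCI, against 7.17 and 5.38 in CON (log2 fold change 5.18). Among high-Pvalb neurons it was at 76.2 and 116 in CCI, against 8.55 and 1.82 in CON (4.31, adjusted p = 0.0016, edgeR), and glia held 73.3 and 31.9 in CCI. Bdnf, a neurotrophin, was at 93.4 and 74.5 in CCI, against 16.1 and 29.0 in CON (1.89), but in high-Pvalb neurons it did not pass the test, at 30.5 and 36.0 in CCI and 17.1 and 21.8 in CON.

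Csf1, the cytokine through which injured neurons act on macrophages and microglia, was at 32.5 and 30.2 in CCI, against 1.79 and 2.15 in CON (ratio 15.5, counting interval 5.19 to 76.3). Satellite glia of CCI held 28.2 and 22.3, close to the level in the neurons. High-Pvalb neurons had 34.3 and 21.4 in CCI, against 2.14 and 1.82 in CON (adjusted p = 0.0206, edgeR, and 0.0515 without the deepest neurons). Fst, which encodes the activin antagonist follistatin, was at 53.8 and 46.8 in CCI, against 0 and 0 in CON, at least 24.9-fold higher. Glia held 18.7 and 19.6 in CCI. High-Pvalb neurons had 72.3 and 26.0 in CCI, against 0 and 0 in CON, but 54 of the 57 Fst UMIs of CCI replicate 1 lay in 1 cell, without which the level was 4.53.

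Stress and cell-cycle genes were led by Cdkn1a, the p21 inhibitor of cyclin-dependent kinases. It was at 173 and 144 in CCI, against 3.58 and 0 in CON (ratio 118, counting interval 32.5 to 975). Satellite glia held 84.9 and 134 in CCI, against 138 and 57.9 in CON, so the CON neurons stood far under their own glial background. High-Pvalb neurons had 145 and 64.3 in CCI, against 2.14 and 0 in CON (adjusted p = 0.0016, edgeR). Of 15 genes on the stress list, 4 were higher, namely Cdkn1a, Gadd45a, Gadd45g and the small heat-shock gene Hspb1.

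Tmem159, which encodes promethin of lipid droplets, was at 109 and 137 in CCI, against 0 and 2.15 in CON, and at 180 and 70.5 in high-Pvalb CCI neurons, against 0 and 0. In CCI replicate 1 a single cell held 131 of the 142 Tmem159 UMIs of the high-Pvalb neurons, and without it they were at 16.6, and all members at 45.5. Satellite glia held it at 34.1 to 41.9 in all 4 libraries, between the CCI and the CON neurons. Lgals3, the galectin-3 gene, was at 76.7 and 42.4 in CCI, against 0 and 0 in CON (at least 29.3-fold higher). Glia held 56.6 and 54.4 of it in CCI, under the neurons of CCI replicate 1 and above those of CCI replicate 2. High-Pvalb neurons had 29.2 and 29.9 in CCI, against 0 and 0 in CON, under the glia of both CCI libraries.

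Receptors for trophic factors gave 5 higher of 15, among them Gfra1, Ret, Tnfrsf12a and the orphan receptor gene Gpr151. Gfra1, the GDNF co-receptor, was at 287 and 260 in CCI, against 30.5 and 64.6 in CON (log2 fold change 2.54, SE 0.35, adjusted p = 0.000419, edgeR). In high-Pvalb neurons it was at 260 and 168 in CCI, against 21.4 and 21.8 in CON (3.33), and glia held 37.4 and 22.7. Ret, the kinase that signals with it, was at 197 and 291 in CCI, against 53.8 and 68.9 in CON (2.06), and at 95.2 and 247 in high-Pvalb CCI neurons, against 55.6 and 12.7 in CON (adjusted p = 0.0509, edgeR).

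Cacna2d1, the alpha2delta-1 subunit that binds gabapentin, was the one calcium channel gene of 9 that was higher. It stood at 289 and 277 in CCI, against 37.6 and 25.8 in CON (log2 fold change 3.26, SE 0.33, adjusted p = 2.74e-05, edgeR). High-Pvalb neurons held 170 and 171 in CCI, against 36.3 and 23.6 in CON (2.56, adjusted p = 0.0016, edgeR), and glia 77.6 and 24.4 in CCI. Scn11a, the Nav1.9 channel of nociceptors, was the one sodium channel gene of 8 that was higher, at 37.6 and 23.4 in CCI, against 7.17 and 1.08 in CON. It missed the threshold in high-Pvalb neurons (adjusted p = 0.0505, edgeR), and CCI glia held 24.6 and 6.45. Among high-Pvalb neurons 1 cell held 27 of 31 Scn11a UMIs in CCI replicate 1 and 1 cell 32 of 35 in CCI replicate 2. Gabra5, a GABA-A receptor subunit, was higher at 26.4 and 34.6 in CCI, against 7.17 and 1.08 in CON, and in high-Pvalb neurons, at 14.0 and 17.6 in CCI, against 4.27 and 1.82 in CON, it was too low to be tested.

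The nociceptor list had 3 higher genes of 10 tested (Calca and Scn11a among them), with a median of 0.71, and none of 5 in high-Pvalb neurons. Calca was at 264 and 204 in high-Pvalb CCI neurons, against 291 and 72.7 in CON, with overlapping groups. The summed level of all 18 genes on that list in Pvalb neurons was 3867 and 2650 in CCI, against 2086 and 2098 in CON.

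Some genes of other cells were called. Apod, a lipocalin of glia and fibroblasts, was at 46.7 and 508 in CCI, against 10.8 and 5.38 in CON, with 449 and 675 in CCI glia. In high-Pvalb neurons it was at 8.88 and 23.0 in CCI, against 10.7 and 1.82 in CON, too low to be tested. The fibroblast gene Dcn was at 50.3 and 324 in CCI, against 12.5 and 24.7 in CON, and likewise did not pass in high-Pvalb neurons. In CCI replicate 2, 1 cell of 16732 UMIs held 536 of 1042 Apod UMIs and 425 of 666 Dcn UMIs.

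Lower genes were fewer. Bc1, a short noncoding RNA of neuronal dendrites (chromosome 7, 144914470 to 144914623), was at 59.4 and 121 in CCI, against 2424 and 437 in CON (log2 fold change -3.88, SE 0.60, adjusted p = 0.00112, edgeR). The CON libraries differed from each other more than the CCI ones did. The same order stood in satellite glia, with 8.27 and 10.6 in CCI, against 222 and 40.2 in CON, and in other Nefh neurons, with 35.5 and 75.9 in CCI, against 995 and 334 in CON. Low-Nefh neurons had 29.8 and 51.4 in CCI, against 620 and 191 in CON, so Bc1 differed between the libraries in each class of cell examined.

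Rasgrp2, a Rap1 exchange factor, was at 66.0 and 94.5 in CCI, against 278 and 238 in CON (log2 fold change -1.60, SE 0.30, adjusted p = 0.00565, edgeR). In high-Pvalb neurons it was at 105 and 126 in CCI, against 261 and 267 in CON (-1.13, adjusted p = 0.0347, edgeR). In CON replicate 2, 1 cell of 211382 UMIs held 115 of the 221 Rasgrp2 UMIs. Without that cell the library was at 148, and its high-Pvalb neurons at 94.4, below both CCI values of those neurons, and without the deepest neurons the gene did not pass (-1.13 in all members, adjusted p = 0.162, edgeR). Other Nefh neurons held 6.07 to 32.5, so this gene was mostly one of Pvalb neurons. The other lower genes named by size were Rem2 (-3.15), Ankrd29 (-2.03), Lin7b (-1.97), Fam81a (-1.74), Necab3 (-1.45), Vstm2l (-1.44), Bola3 (-1.42) and Isoc1 (-1.36), of which none passed in high-Pvalb neurons. Rem2, a small GTPase, rested on CON replicate 2, where it was at 125, against 14.3 in CON replicate 1 and 9.14 and 6.82 in CCI.

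Of 21 potassium and HCN channel genes tested, none was higher and 2 were lower, with a median log2 fold change of -0.31. Kcna2 was at 171 and 132 in CCI, against 486 and 321 in CON (-1.34, SE 0.30, adjusted p = 0.0192, edgeR), and the groups did not overlap. Without the deepest neurons the log2 fold change was -1.28 (adjusted p = 0.0877, edgeR). In high-Pvalb neurons it was at 195 and 191 in CCI, against 459 and 343 in CON (-1.01, adjusted p = 0.0651, edgeR). Gria4, an AMPA receptor subunit, was the lower glutamate receptor of 7, at 12.7 and 17.0 in CCI, against 41.2 and 51.6 in CON (-1.58). Kcna2 and Gria4 missed the threshold in high-Pvalb neurons, and no CCI library reached a CON one. Among all members, the groups did not overlap in 4200 of the 9304 genes tested (45.1%), so a lack of overlap alone says little.

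Genes that give these neurons their identity were not called. Of 11 proprioceptor genes none passed, with a median log2 fold change of -0.56, and of 4 neurofilament genes none passed (-0.79). The same held for the 3 label markers tested (-0.33), for 17 genes of glutamate release (-0.30) and for 5 mechanosensory and acid-sensing channels (0.15). Of 10 genes of myelinated fibres, Tmem233 was called, and of 8 low-threshold mechanoreceptor genes, Ret. Etv1 came closest, at 299 and 268 in CCI, against 615 and 609 in CON (-1.04, SE 0.28, adjusted p = 0.0538, edgeR), and in high-Pvalb neurons at 503 and 394 in CCI, against 645 and 899 in CON (adjusted p = 0.23, edgeR). Runx3 had a log2 fold change of -0.75 (adjusted p = 0.188, edgeR) and Slc17a7 one of -0.33 (SE 0.28, adjusted p = 0.655, edgeR). Spp1 was at 646 and 492 in CCI and 312 and 381 in CON (0.77, adjusted p = 0.192, edgeR). With 2 libraries a group, a p that misses the threshold does not show that these genes stayed the same.

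**Figure D3:**
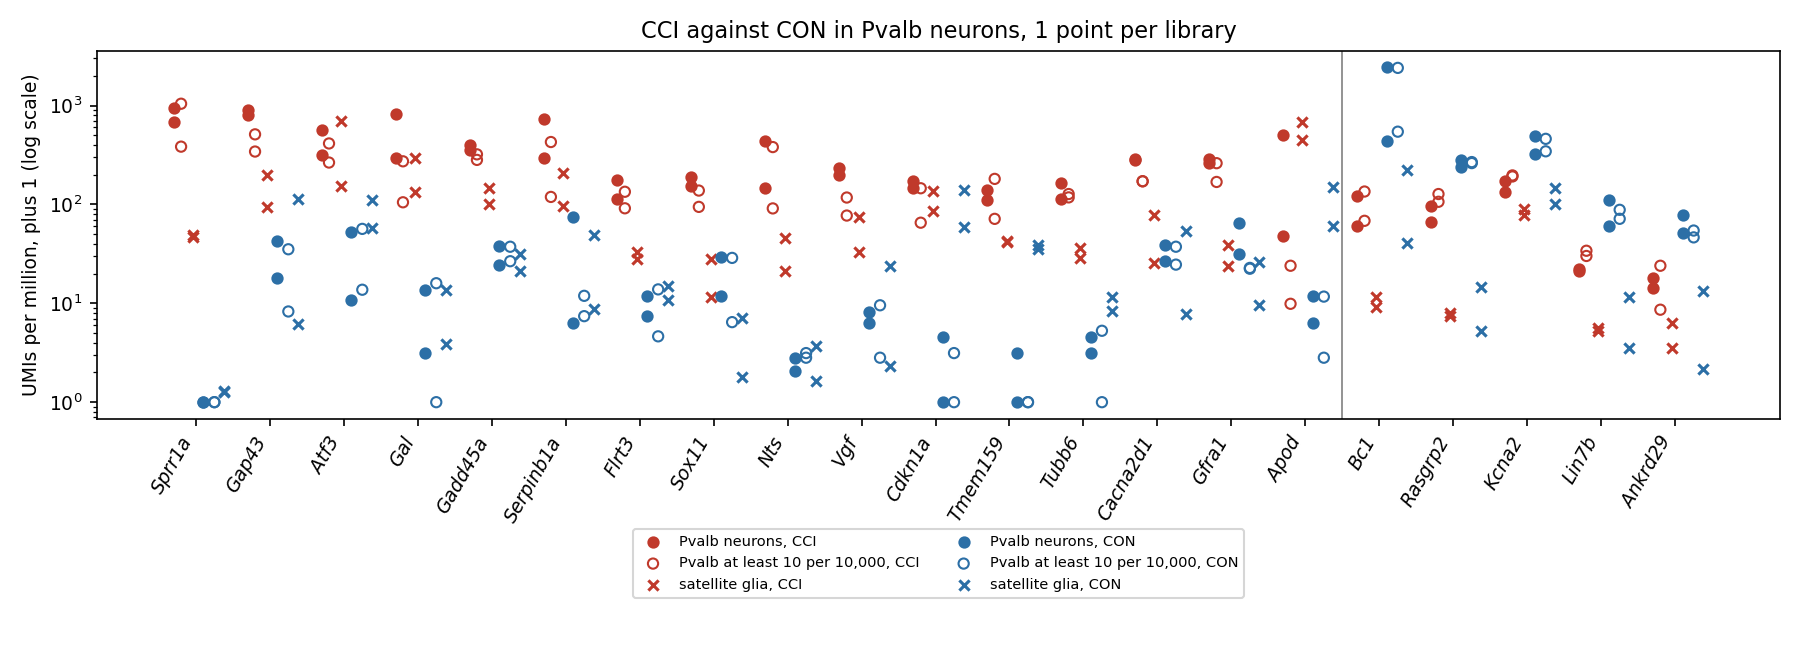
Levels of named genes are drawn as CPM plus 1 on a log axis, CCI (red) left of CON (blue), with 1 point for each library in Pvalb neurons (filled), high-Pvalb neurons (open) and satellite glia (crosses), and genes lower in CCI right of the line. Gap43 stands at 899 and 810 in CCI and at 41.2 and 17.2 in CON, and Kcna2 at 171 and 132 in CCI and at 486 and 321 in CON.

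Whether injury did the same to Pvalb neurons as to other neurons was tested as the difference of the CCI effects, with the library as a block. Against other Nefh neurons, 24 of 13318 genes had a higher effect in Pvalb neurons (0.18%), and none had a lower one in edgeR. At an unadjusted p under 0.05 there were 1193 genes in either direction, and DESeq2 called 76. Without CCI replicate 1 there were 6 calls and without CCI replicate 2 there was 1, and 2 in high-Pvalb neurons. Without the deepest neuron of each library Gap43 was the only call, and among high-Pvalb neurons there was then none, with 942 genes at an unadjusted p under 0.05. The fits share the libraries of both classes, and the classes were cut by the rule on Pvalb. In CON replicate 2 the other Nefh neurons were 18 cells.

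Gap43 stood apart most clearly. In Pvalb neurons it was at 899 and 810 in CCI, against 41.2 and 17.2 in CON, whereas other Nefh neurons held 1350 and 1176 in CCI, against 784 and 448 in CON. The 2 classes lay close together in CCI and far apart in CON. The difference of log2 effects was 3.88 (SE 0.25, adjusted p = 4.13e-05, edgeR), 3.48 without the deepest neurons (adjusted p = 0.00104, edgeR), and 3.36 in high-Pvalb neurons (adjusted p = 0.0312, edgeR, and 0.223 without the deepest of them). Low-Nefh neurons, the remaining 3016, held 1459 and 1549 in CCI and 465 and 304 in CON, with a difference of 3.06 (SE 0.25, adjusted p = 0.000314, edgeR).

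Growth-cone genes gave 5 of 22 with a higher effect against other Nefh neurons. Tubb2b was at 926 and 594 in CCI and 463 and 274 in CON in other Nefh neurons (difference of log2 effects 3.56). Stmn4 was there at 127 and 107 in CCI and 46.0 and 45.2 in CON (2.55), and Cacna2d1, of the channel lists, at 546 and 312 in CCI and 401 and 170 in CON (2.56). For each of these the 2 classes lay nearer to each other in CCI than in CON. In high-Pvalb neurons the difference of these 3 genes did not pass (adjusted p of 0.646, 0.691 and 0.562, edgeR), nor did it among all members without the deepest neurons (0.120, 0.112 and 0.127).

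Cdkn1a, Tmem159, Tuba1c and Tagln2 were the other genes named by size, with differences of 4.74, 4.16, 12.1 and 3.87 on the log2 scale. Tuba1c, an alpha-tubulin, was at 29.4 and 31.7 in CCI, against 0 and 0 in CON in Pvalb neurons, and at 21.9 and 23.9 in CCI and 13.4 and 28.1 in CON in other Nefh neurons. The fitted value of Tuba1c depends on the prior count. In CCI replicate 1, 35 of its 58 UMIs lay in 1 cell. None of these 4 genes passed in high-Pvalb neurons, or among all members without the deepest neurons. Tagln2, an actin-binding protein, there stood at 27.9 and 81.9 in CCI and 29.9 and 3.63 in CON.

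Against low-Nefh neurons, 95 genes had a higher effect in Pvalb neurons (0.713%) and 36 a lower one (0.27%). These 131 calls became 40 without CCI replicate 1, 32 without CCI replicate 2, 86 without CON replicate 2 and 49 without the deepest neuron of each library. Mcub, a subunit that restrains the mitochondrial calcium uniporter, was at 56.9 and 44.3 in CCI, against 1.79 and 3.23 in CON in Pvalb neurons. Low-Nefh neurons held 111 and 122 of it in CCI and 90.4 and 114 in CON (difference 4.13, SE 0.46, adjusted p = 0.00167, edgeR). Mcub kept its call in high-Pvalb neurons (adjusted p = 0.011, edgeR), and there also without the deepest of them (0.0259). Tmem159 (difference 5.79 among all members) passed in high-Pvalb neurons, but not without the deepest neurons (adjusted p = 0.0753 in all members and 0.309 in high-Pvalb neurons, edgeR). Gfra1 was at 47.1 and 35.8 in CCI and 40.2 and 27.7 in CON in low-Nefh neurons, with a difference of 2.23, and of 3.04 in high-Pvalb neurons (adjusted p = 0.00223, edgeR).

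Lgals3 (difference 11.1), Cdkn1a (5.43) and Ly86 (4.69) were the other higher genes named by size, none of them called in high-Pvalb neurons. Ly86, a secreted partner of a Toll-like receptor homologue, went opposite ways: it was at 76.1 and 58.9 in CCI, against 8.96 and 2.15 in CON in Pvalb neurons, and at 414 and 451 in CCI, against 893 and 598 in CON in low-Nefh neurons. In high-Pvalb neurons it was at 14.0 and 55.9 in CCI, against 10.7 and 1.82 in CON, and CCI glia held 42.0 and 16.7. One cell held 72 of the 73 Ly86 UMIs of the high-Pvalb neurons in CCI replicate 2, and 72 of the 121 of all members.

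The 36 genes with a lower effect included several that low-Nefh neurons gained and Pvalb neurons already held. Bcat1, which transaminates branched-chain amino acids, was at 29.4 and 51.1 in CCI and 37.6 and 42.0 in CON in Pvalb neurons. In low-Nefh neurons it was at 53.4 and 45.1 in CCI, against 1.46 and 1.15 in CON (difference -5.07, SE 0.54, adjusted p = 0.0013, edgeR). Gpr158, an orphan receptor, was at 103 and 91.1 in CCI and 124 and 99.0 in CON in Pvalb neurons, against 42.2 and 32.5 in CCI and 10.1 and 7.97 in CON in low-Nefh neurons (-2.16). For both genes the CCI and CON levels of Pvalb neurons overlapped.

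Chst2, a carbohydrate sulfotransferase, was at 132 and 177 in CCI, against 46.6 and 51.6 in CON in Pvalb neurons, and at 81.7 and 73.8 in CCI, against 4.18 and 3.64 in CON in low-Nefh neurons (-2.62). Thy1, a surface glycoprotein of large neurons, was at 484 and 647 in CCI and 547 and 569 in CON in Pvalb neurons (-1.76). Bcat1, Gpr158, Chst2 and Thy1 all kept their calls in high-Pvalb neurons, with adjusted p of 0.00416, 0.00197, 0.00197 and 0.0151 in edgeR. Without the deepest neurons Thy1 missed the threshold (adjusted p = 0.0515, edgeR) and the other 3 passed. Phlda3, a p53 target with a difference of -1.68, did not (adjusted p = 0.189, edgeR).

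**Figure D4:**
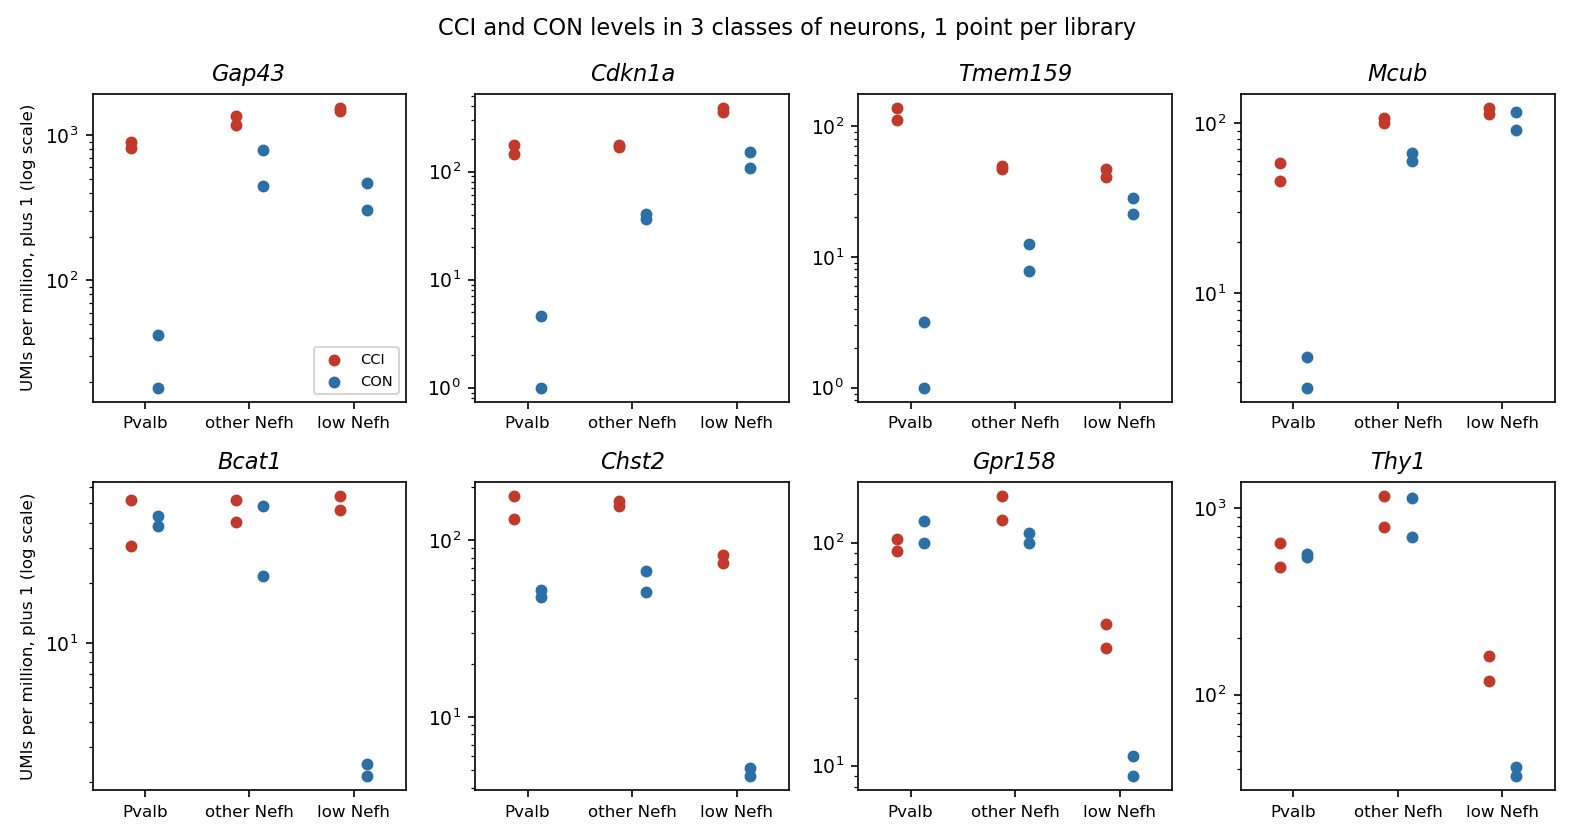
Levels in Pvalb, other Nefh and low-Nefh neurons are drawn as CPM plus 1 on a log axis, with 1 point for each library and CCI (red) left of CON (blue) in each class. Gap43 in CCI is at 810 or more in every class, and in CON it is at 41.2 and 17.2 in Pvalb neurons against 304 or more in the others, whereas Bcat1 in CON is at 37.6 and 42.0 in Pvalb neurons and at 1.46 and 1.15 in low-Nefh neurons.

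Sprr1a has been used to tell injured from spared neurons, and the rule on members set no limit on it. At 5 or more Sprr1a UMIs per 10000, 9 of 75 Pvalb neurons (12%, exact 95% interval 5.64 to 21.6) and 17 of 60 (28.3%, 17.5 to 41.4) were Sprr1a-high in CCI. In CON 0 of 12 and 0 of 20 were, which by the exact interval allows shares of up to 26.5% and 16.8%. These intervals cover counting error only. In high-Pvalb neurons the counts were 3 of 20 and 5 of 35 in CCI and 0 of 10 and 0 of 9 in CON. An exact permutation test of 2 libraries against 2 cannot give a p under 0.33, so none was run.

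With a threshold of 1 UMI after thinning to 8000 UMIs per cell, Sprr1a was found in 47 of 75 (62.7%) and 43 of 60 (71.7%) Pvalb neurons in CCI. Unthinned, it was found in 56 of 75 and 49 of 60 in CCI, and in none of 12 and 20 in CON. In satellite glia thinned alike, 130 of 561 (23.2%) and 252 of 1180 (21.4%) of CCI had a UMI, so a single UMI does not mark expression of the gene in a cell. Thinned alike, 50.8% and 53.6% of other Nefh and 37.5% and 40.7% of low-Nefh neurons of CCI had a UMI, both under the Pvalb neurons. At 5 per 10000 the share in other Nefh neurons was 12.3% and 40.7% in CCI, in low-Nefh neurons 19.4% and 29.5%, and in satellite glia 1.50% and 1.04%. The exact intervals of the Pvalb shares held the values of both other classes of neurons in each CCI library. Median UMIs were 37945 and 24404 in Sprr1a-high and 12917.5 and 22653 in Sprr1a-low Pvalb neurons of CCI.

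Values in Sprr1a-high Pvalb neurons are a description of 9 and 17 cells, and no test was run on them. Of the 8 other RAGs, 6 were higher in Sprr1a-high cells of both CCI libraries, but not confined to them, and none was lower in both. Over all 9303 genes compared, 1826 were higher in both and 4627 lower in both. Gap43 was at 1930 and 1914 in Sprr1a-high and at 553 and 322 in Sprr1a-low CCI neurons, against 41.2 and 17.2 in CON. Atf3 was at 839 and 384 in Sprr1a-high and 466 and 285 in Sprr1a-low CCI neurons, against 52.0 and 9.68 in CON. Gadd45a was at 677 and 597 in Sprr1a-high and 304 and 246 in Sprr1a-low CCI neurons, against 23.3 and 36.6 in CON. For each of these 3, within each CCI library, the Sprr1a-low cells lay between the Sprr1a-high cells and CON. Gal and Serpinb1a differed between the libraries. Gal was at 180 and 2243 in Sprr1a-high and 335 and 201 in Sprr1a-low CCI neurons, and Serpinb1a at 145 and 1039 in Sprr1a-high and 342 and 590 in Sprr1a-low CCI neurons, so that in CCI replicate 1 both were lower in the Sprr1a-high cells. The Gal value of 2243 rested mostly on 1 Sprr1a-high cell of 130322 UMIs, which held 75.7 Gal UMIs per 10000. In Sprr1a-low high-Pvalb neurons Gap43 was at 226 and 227 in CCI, against 34.2 and 7.27 in CON.

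Most proprioceptor genes showed the opposite order: 9 of 11 were lower in Sprr1a-high cells of both CCI libraries, beside 4627 of 9303 over all genes. Fxyd7, a regulator of the sodium pump, was higher in both among all members, at 2728 and 5364 in Sprr1a-high and 2286 and 4114 in Sprr1a-low CCI neurons. In high-Pvalb neurons its order was reversed, at 51.5 and 179 in Sprr1a-high cells (10 and 32 UMIs), against 1256 and 4596 in Sprr1a-low ones. Spp1 was at 968 and 464 in Sprr1a-high and 538 and 504 in Sprr1a-low CCI neurons, higher in one library and lower in the other. In CCI replicate 1, most of the 479 Spp1 UMIs of the Sprr1a-high cells lay in 1 cell of 124931 UMIs. That cell held 34.4 Spp1 UMIs per 10000, and the other Sprr1a-high cells of the library at most 5.12. The higher value there thus rested on 1 cell. Etv1 was at 20.2 and 19.1 in Sprr1a-high CCI neurons (10 and 12 UMIs in all), at 393 and 379 in Sprr1a-low CCI neurons and at 615 and 609 in CON. The value of the Sprr1a-high cells lay under that of satellite glia, 61.1 and 69.9. Whrn was at 0 and 3.18 in Sprr1a-high, 61.7 and 37.2 in Sprr1a-low CCI neurons and 52.0 and 59.2 in CON. Esrrg was at 10.1 and 0 in Sprr1a-high, 55.6 and 35.1 in Sprr1a-low CCI neurons and 66.3 and 68.9 in CON. Runx3 was less far apart, at 34.3 and 20.6 in Sprr1a-high, 60.3 and 66.0 in Sprr1a-low CCI neurons and 98.6 and 89.3 in CON.

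Channel genes of the large fibre followed Etv1. Kcna2 was at 28.3 and 14.3 in Sprr1a-high, 218 and 185 in Sprr1a-low CCI neurons and 486 and 321 in CON. Kcns1 was at 2.02 and 0 in Sprr1a-high, 73.9 and 52.7 in Sprr1a-low CCI neurons and 108 and 79.6 in CON, and Kcnb2, a Kv2 channel, at 44.5 and 23.8, 308 and 205, and 539 and 256 in the same order. Slc17a7 moved less, at 182 and 176 in Sprr1a-high, 352 and 421 in Sprr1a-low CCI neurons and 453 and 417 in CON. Pvalb, which chose the cells, was at 1140 and 1085 in Sprr1a-high and 1283 and 1576 in Sprr1a-low CCI neurons.

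Over the 9303 genes compared in this way, 173 (1.86%) were more than 4-fold lower and 4 (0.043%) more than 4-fold higher in Sprr1a-high than in Sprr1a-low neurons of both CCI libraries. Of the 11 proprioceptor genes 3 were among the lower ones (Etv1, Whrn and Esrrg), and of 21 potassium and HCN channel genes 3 (Kcna2, Kcnb2 and Kcns1). The median log2 difference was -1.70 over the proprioceptor genes and -0.29 over all genes. Within high-Pvalb neurons, 3 and 5 cells were Sprr1a-high, with Etv1 at 20.6 and 56.0, against 660 and 448 in the Sprr1a-low ones.

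**Figure D5:**
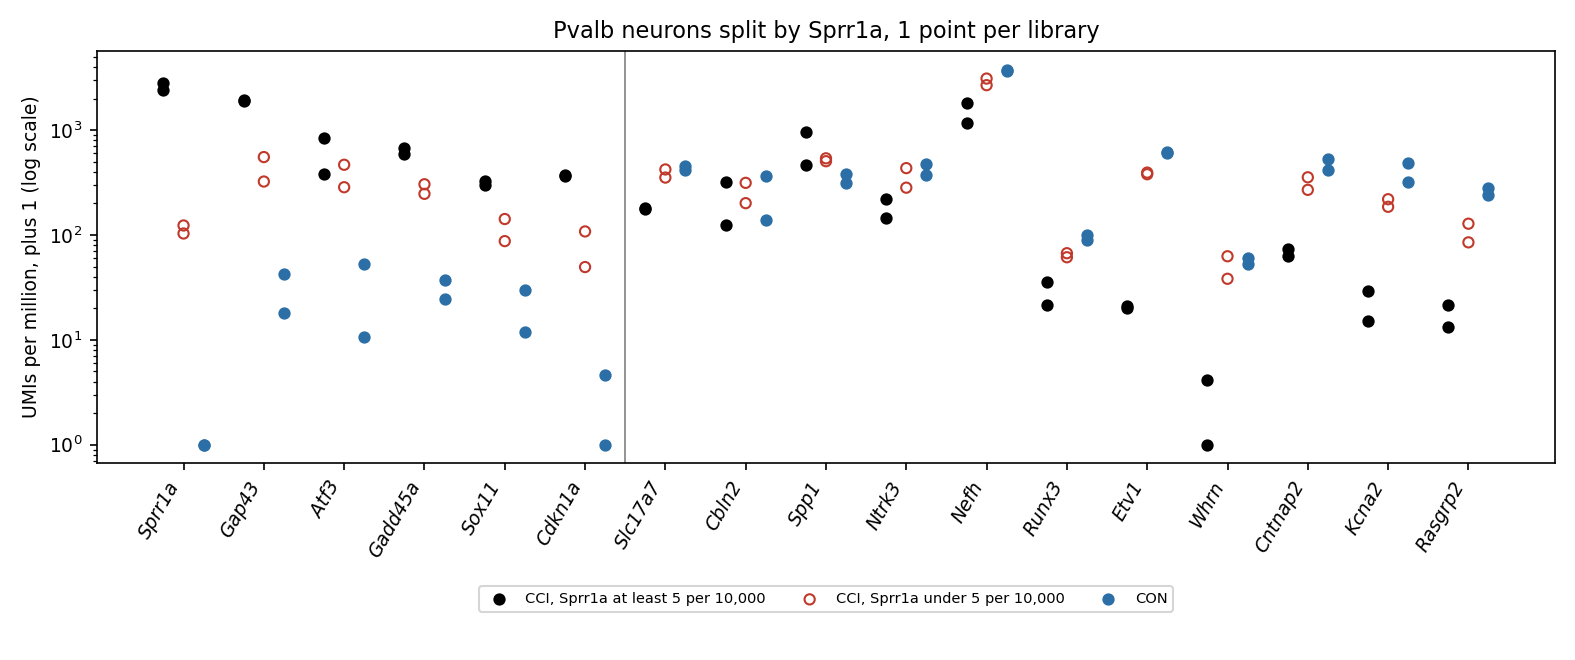
Levels are drawn as CPM plus 1 on a log axis in Sprr1a-high (black) and Sprr1a-low (open) Pvalb neurons of the CCI libraries and in Pvalb neurons of the CON libraries (blue), with 1 point for each library and injury genes left of the line. Gap43 is highest in Sprr1a-high cells at 1930 and 1914, whereas Etv1 is lowest there at 20.2 and 19.1.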

How the data were processed

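Dissociated ganglion cells were run on the Chromium 3′ v3.1 platform in 4 libraries. The deposited counts are whole UMIs of 31253 genes per barcode, which the authors made with Cell Ranger 5.0.1 on mm10 after trimming with fastp. Enzymes differ between the labels and the paper, and the authors' later cell filter is not in these counts. The members and the gene lists were chosen with earlier results of these data known.

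UMIs of the members, of other Nefh neurons and of low-Nefh neurons were summed per library, with the 13 mitochondrial genes kept in the sums. Gene positions were those of RefSeq for GRCm38. Satellite glia were barcodes with at least 2000 UMIs, under 20% mitochondrial UMIs, at least 20 UMIs of Apoe and Fabp7, at least 5 of Fabp7, and over 4 times as many as of the neuron markers. Sums were tested with edgeR 4.0.16 in R 4.3.3 (filterByExpr, TMM, quasi-likelihood, Benjamini-Hochberg, adjusted p under 0.05). CCI against CON was fitted on 4 sums, the difference of effects on 12 sums and Pvalb against other Nefh neurons on 8, both with the library as a block. The scripts were tested on simulated data. Total counts of the members' sums were 558053 to 2053070. A count of 0 leaves room for 3 UMIs, and exact binomial intervals (95%) came from scipy 1.17.1.

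Named genes were the label markers, the study's RAGs, the 10 largest changes per direction of CCI against CON and the 5 largest of each other test (past the threshold, with libraries of the groups apart and a mean of 5 or more log2 CPM), and at most 4 genes from each list. Some listed genes were counted but are not reported here. Other genes, among them Npy in the lower Pvalb range, Kcns1 and the genes of the Sprr1a split, were chosen after their values were seen. The fits were repeated with DESeq2 1.42.0, with upper-quartile factors, without the low-count filter, with cells thinned to 8000 UMIs, a Pvalb minimum of 10 per 10000, mitochondrial UMIs under 10%, doublet-like cells left out, each library left out, the deepest neuron of each library left out (chosen after seeing the data), the replicate number as a block, and no library block.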

Additional observations from a re-analysis of the deposited data

Results flagged for a closer look

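The CCI effect differed between classes of neurons in edgeR's test of the difference itself. Against other Nefh neurons this held for 24 genes, led by Tuba1c (12.07), Cdkn1a (4.74), Tmem159 (4.16), Gap43 (3.88) and Tagln2 (3.87), each value being the log2 effect in Pvalb neurons minus that in other Nefh neurons. Of these 5, Gap43 alone kept its call without the deepest neuron of each library, and in 12 of 13 alternatives run, the exception being high-Pvalb neurons without the deepest of them.

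Against low-Nefh neurons it held for 131 genes. The largest higher effects in Pvalb neurons were those of Lgals3 (11.12), Tmem159 (5.79), Cdkn1a (5.43), Ly86 (4.69) and Mcub (4.13), and the largest lower ones those of Bcat1 (-5.07), Chst2 (-2.62), Gpr158 (-2.16), Thy1 (-1.76) and Phlda3 (-1.68). Mcub, Bcat1 and Gpr158 kept their calls in all 13 alternatives, whereas Tmem159 lost its call without the deepest neurons, and Lgals3 in Pvalb neurons of CCI replicate 2 stood under its level in satellite glia. Lgals3, Tuba1c, Cdkn1a and Tmem159 had no UMI in at least 1 CON library, and their fitted values depend on the prior count.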

How the results depend on the processing

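The counts of calls moved more than the directions of the reported genes did, many of which were chosen by passing the test. CCI against CON gave 333 calls, and 625 without the low-count filter, 34 after thinning, 99 in high-Pvalb neurons, 178 without doublet-like cells, 183 without the deepest neuron of each library (40 in high-Pvalb neurons) and 247 to 678 with a library left out, most without CON replicate 1 (678) and CON replicate 2 (522). For the effect against other Nefh neurons the 24 calls became 76 with DESeq2, 260 without the filter, 5 after thinning, 2 in high-Pvalb neurons, 8 without doublet-like cells, 1 without the deepest neurons (0 in high-Pvalb neurons, with 942 genes at an unadjusted p under 0.05 in edgeR) and 1 to 33 with a library left out (6 without CCI replicate 1, 1 without CCI replicate 2). For that against low-Nefh neurons the 131 became 219, 521, 33, 25 and 68 under the same settings, 49 without the deepest neurons (19 in high-Pvalb neurons) and 32 to 182 with a library left out (40 without CCI replicate 1, 32 without CCI replicate 2, 86 without CON replicate 2). Pvalb against other Nefh neurons gave 2544 calls, 1006 after thinning, 1114 without the library block and 1658 to 2222 with a library left out (1658 without CCI replicate 1). Leaving out the deepest neuron was chosen after seeing the data. Thinning and the cell rules leave fewer UMIs or cells, and for the other settings the cause was not tested. A threshold of 1 UMI after thinning raised the mean Sprr1a-positive share of the CCI libraries to 67.2%, against 20.2%. Over the genes reported for CCI against CON, 549 of the values under alternatives kept their direction and call, and 119 kept the direction only. Genes not tested under an alternative were left out of these counts. Of 51 genes, 39 were tested after thinning, 39 in high-Pvalb neurons and 45 without doublet-like cells. In high-Pvalb neurons without the deepest of them 35 were tested. After thinning 14 kept direction and call, and 25 the direction only. For the named genes of Pvalb against other Nefh neurons all 140 kept both, but these genes had been chosen as the largest past the threshold. A fit that leaves a group with 1 library assumes that this library varies like the others.

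With the replicate number as a block, CCI against CON gave 636 calls. Differences between replicates 1 and 2 correlated at 0.109 between the groups over 9306 genes, but with 2 pairs of libraries and no shared source in the labels the libraries share only a number. The planned tests of Sprr1a-high against Sprr1a-low neurons and of Sprr1a-low neurons against CON were not run, because each needed at least 20 cells in every sum. For the first, the CCI libraries had 9 and 17 Sprr1a-high cells, and for the second, CON replicate 1 had 12 cells. Depth limits the CON values most, as 12 and 20 cells carry them.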
